A study of Mus musculus with 18 samples.

Results

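The BCL2 family sets whether a cell under stress permeabilizes its outer mitochondrial membrane and dies by apoptosis. The genes described are 10 of its best-known members, *Mcl1*, *Bcl2*, *Bcl2l1*, *Bcl2l11*, *Bax*, *Bak1*, *Bbc3*, *Pmaip1*, *Bid* and *Bad*. They were found by gene symbol among the 55450 genes of the deposited count table. Each of the 10 matched 1 gene.

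Family members fall into 3 roles. MCL1, BCL2 and BCL-xL (encoded by *Bcl2l1*) are prosurvival proteins that hold the death-promoting members in check. BAX and BAK are the effectors that form pores in the mitochondrial membrane, through which cytochrome c leaves to activate caspases. The BH3-only proteins sense damage and either neutralize the prosurvival proteins or activate the effectors. They include BIM (encoded by *Bcl2l11*), PUMA (*Bbc3*), NOXA (*Pmaip1*), BID and BAD. MCL1 has a short-lived mRNA and a short-lived protein, so its loss is a known consequence of acute inhibition of CDK9, the kinase that releases paused RNA polymerase II. Long-lived family members are known to be less sensitive to such a block.

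RNA-Seq was performed on ED1SQ4, a murine lung cancer cell line derived from cyclin E-driven tumors of transgenic mice. Cells received vehicle or CYC065 (fadraciclib), an inhibitor of CDK2 and CDK9, at 0.5 µM, and were harvested after 72 hours. They were profiled unsorted, or after staining with a live-cell DNA dye and sorting by DNA content into a 2N (diploid) and a 4N (polyploid) fraction. This gave 6 conditions, which were vehicle unsorted, CYC065 unsorted, vehicle 2N, CYC065 2N, vehicle 4N and CYC065 4N. All 6 came from a single cell line. A gate on DNA content alone does not part diploid cells in G2 or mitosis from polyploid cells in G1, so a 4N fraction can hold both.

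The table held 3 columns for each condition, labelled as replicates and named as parts of one library. Over genes with whole counts, the chi-square statistic between the columns of a condition lay between 0.992 and 1.02 per degree of freedom, against 14.5 to 374 between conditions. Over all genes, those with fractional counts included, it lay between 1.62 and 2.24. At whole-count genes the 3 columns thus differed by no more than sampling noise, and they were counted as 1 library, which leaves 1 library per condition. P values below compare these libraries, and say nothing of how cultures vary, which was not measured. A library held between 54750203 and 62795507 counts. Levels are given as CPM, counts scaled to the library total after TMM normalization, and all 6 libraries share 1 scale. "Higher" and "lower" without further comment mean an adjusted P below 0.05 in edgeR's quasi-likelihood test over 14761 genes. A gene was "called" when its log2 fold change also lay beyond 1 in either direction. Intervals are 95% and cover counting error only. Those for differences of responses instead use the standard error of edgeR's test, which rests on the spread among columns. In bulk RNA, fewer cells of a kind and less RNA per cell cannot be told apart. CPM is a share of a library, so a change in total RNA per cell, which was not given, would not show.

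The labelled tissue was checked against marker genes. All 5 epithelial markers (*Epcam*, *Cdh1*, *Krt8*, *Krt18* and *Krt19*) stayed below 1 CPM in each library, and the 4 lung lineage markers were at or near 0. The mesenchymal genes *Vim* (2155 to 4599 CPM) and *Fn1* (6857 to 11236.5 CPM) were abundant. *Ptprc* and *Cd3e*, which define leukocytes, had at most 0.02 CPM, and the endothelial genes *Pecam1*, *Cdh5* and *Kdr* at most 1.5 CPM. *Cd68*, a lysosomal gene of macrophages, was the exception in the leukocyte list, at 3.35 to 3.99 CPM with vehicle and 11.2 to 24.5 CPM with CYC065. It was higher in the same libraries as *Bcl2l11*, and its part in the values below was not tested.

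All family members share the BH3 motif, the short helix through which they bind each other, and it is the feature that joins genes which otherwise responded differently. Its coding sequence is shown for the 9 members whose sequence is given here, 45 bases each, read in the sense of the gene from GENCODE M21 transcripts on mm10. Capitals mark the 6-codon core, which opens with a leucine codon and ends with an aspartate codon. The codon before the aspartate is for glycine, alanine or serine, and the one before that for isoleucine, methionine, valine or alanine. Each of the 9 had exactly 1 match to this core in its coding sequence, against at least 1 match in 8.91% of 21571 coding genes. The core was written to describe the BH3 motif of this family, so its presence in the members is not a result. A match of letters alone is a description of the sequence.
Mcl1: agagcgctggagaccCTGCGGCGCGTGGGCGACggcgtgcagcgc
Bcl2: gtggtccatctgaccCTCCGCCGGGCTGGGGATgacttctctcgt
Bcl2l1: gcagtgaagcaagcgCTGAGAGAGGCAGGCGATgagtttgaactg
Bax: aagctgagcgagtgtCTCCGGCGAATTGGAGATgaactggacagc
Bak1: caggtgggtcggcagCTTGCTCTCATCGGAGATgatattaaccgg
Bcl2l11: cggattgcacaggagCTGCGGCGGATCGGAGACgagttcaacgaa
Bbc3: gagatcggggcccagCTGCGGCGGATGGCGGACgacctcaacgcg
Bid: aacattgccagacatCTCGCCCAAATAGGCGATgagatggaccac
Bad: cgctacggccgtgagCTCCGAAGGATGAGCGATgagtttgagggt

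On mm10 these stretches lie in single coding exons at chr3:95659421-95659465 (*Mcl1*, plus strand), chr1:106712572-106712616 (*Bcl2*, minus), chr2:152829694-152829738 (*Bcl2l1*, minus), chr7:45465994-45466038 (*Bax*, minus) and chr17:27022528-27022572 (*Bak1*, minus). Those of the BH3-only genes lie at chr2:128147135-128147179 (*Bcl2l11*, plus), chr7:16313758-16313802 (*Bbc3*, plus), chr6:120897286-120897330 (*Bid*, minus) and chr19:6950777-6950821 (*Bad*, plus). The core began at codon 194 of 331 in *Mcl1*, whose coding sequence was the longest of the 9, and at codon 63 of 192 in *Bax*, whose coding sequence was the shortest.

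After CYC065, the family changed in opposite directions within the death-promoting side. *Bcl2l11*, which encodes BIM, was 3.71-fold higher in unsorted, 2.74-fold higher in 2N and 2.87-fold higher in 4N cells, and *Bbc3* was 3.21-fold higher in 2N and 2.33-fold higher in 4N cells. The effectors *Bax* and *Bak1* were lower in all 3 comparisons, by at most 1.78-fold. *Mcl1* differed by at most 1.24-fold. Of the 9 members tested, 1 was called in unsorted cells, where 25.2% of all genes tested were called, 2 in 2N cells (27.9%) and 2 in 4N cells (25.9%). All of these were higher, a direction called for 13.1%, 17.0% and 16.4% of all genes. At any size of change, 8, 7 and 7 members passed, against 78.3%, 80.4% and 80.5% of all genes. Over 9 genes, these shares do not set the family apart from the background, in which a large part of the transcriptome differed between these libraries. The median log2 fold change of the 9 was -0.05, -0.04 and -0.10, where that of all genes was 0.00, 0.03 and 0.07.

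**Figure D1:**
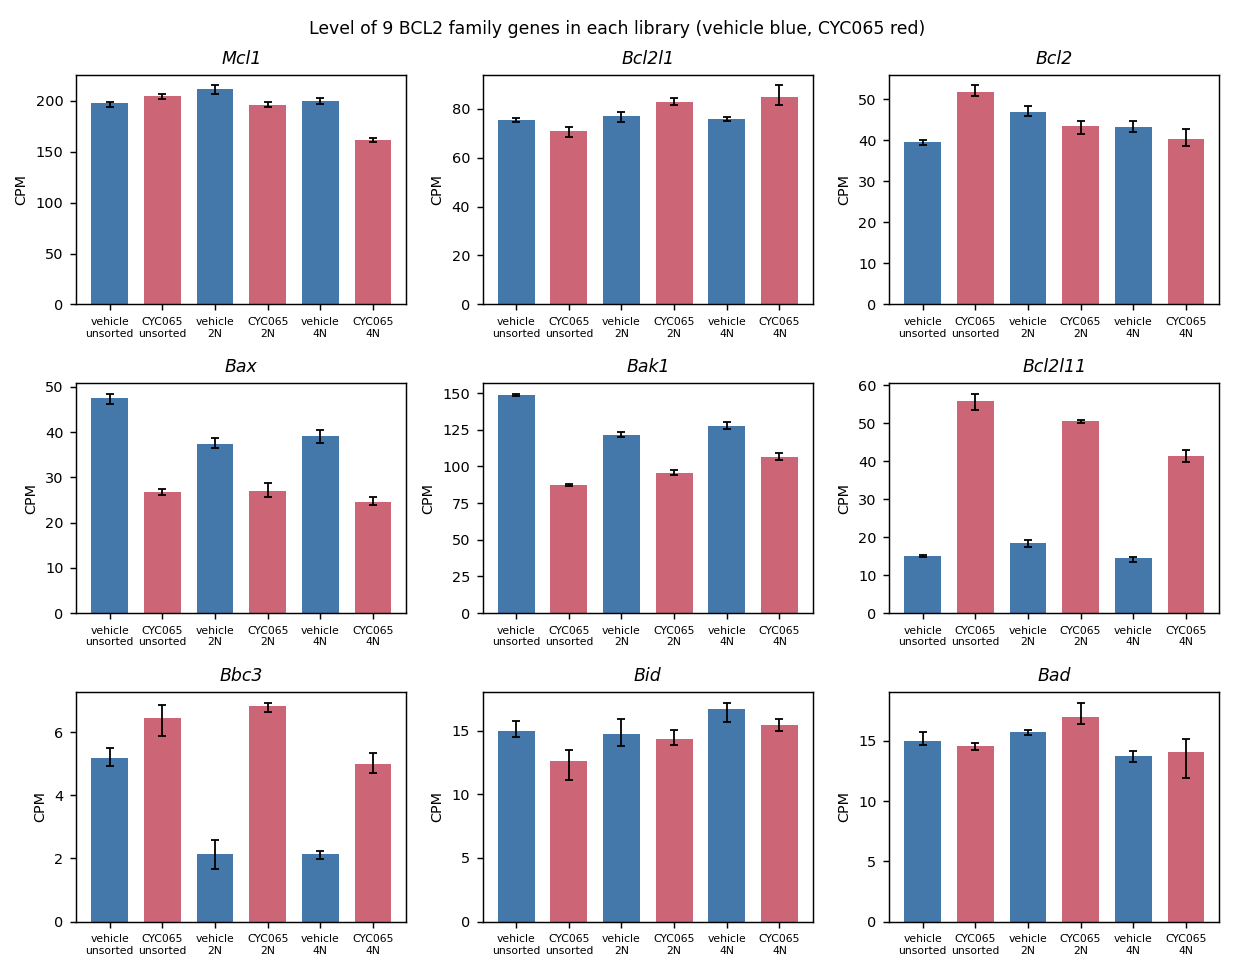
Level of 9 BCL2 family genes in each of the 6 libraries, in CPM after TMM scaling, on axes that start at 0. Bars show the library value and whiskers the lowest and highest of its 3 columns, which are parts of 1 library. *Bcl2l11* stood at 41.3 to 55.9 CPM in the 3 CYC065 libraries and at 14.4 to 18.4 CPM in the 3 vehicle libraries, while *Mcl1* stayed between 161 and 212 CPM.

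*Mcl1* (chr3:95658788-95663176, plus strand) was the most abundant prosurvival transcript. Its 3 columns held 3866, 3770 and 3865 counts in vehicle unsorted and 3674, 3590 and 3675 in CYC065 unsorted cells. In the 2N fraction they held 3977, 4118 and 4148 counts with vehicle and 3662, 3746 and 3685 with CYC065, and in the 4N fraction 3979, 4052 and 4097 with vehicle and 3611, 3571 and 3519 with CYC065. After scaling, CYC065 4N was the lowest of the 6 libraries.

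On the CPM scale, *Mcl1* was at 197 in vehicle unsorted and 205 in CYC065 unsorted cells, 212 and 196 in 2N, and 200 and 161 in 4N cells. The log2 fold change with CYC065 was -0.31 in 4N cells (interval -0.35 to -0.27) and -0.11 in 2N cells (interval -0.15 to -0.07). In unsorted cells it was 0.05 (interval 0.02 to 0.09), a direction that turned to -0.06 when libraries were scaled by their totals alone. At 72 hours, the CPM of *Mcl1* with CYC065 was thus 0.808 of its vehicle value in 4N, 0.926 in 2N and 1.04 in unsorted cells. These are levels relative to the other genes of a library, and the amount of *Mcl1* mRNA per cell cannot be read from them. Of all genes tested, 31.6% had a lower log2 fold change than *Mcl1* in 4N cells and 43.0% in 2N cells.

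*Bcl2l1* (chr2:152780668-152831728, minus strand), the gene of BCL-xL, varied least of the family. It ranged from 70.7 CPM in CYC065 unsorted to 84.7 CPM in CYC065 4N cells, a log2 range of 0.26 over the 6 libraries. Only 4.08% of 10816 well-counted genes (at least 100 counts in each library) had a smaller range. Its log2 fold change with CYC065 was -0.09 in unsorted, 0.10 in 2N and 0.16 in 4N cells, so that it was slightly higher with the drug in both sorted fractions, where *Mcl1* was lower.

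*Bcl2* (chr1:106538178-106714274, minus strand), the founding member of the family, behaved differently in unsorted and sorted cells. Its columns held 776, 757 and 777 counts in vehicle unsorted and 949, 907 and 904 in CYC065 unsorted cells, a log2 fold change of 0.38 (interval 0.30 to 0.46). In 2N and 4N cells the log2 fold change was -0.10 in each, with a lower level under CYC065. The response in 2N cells differed from that in unsorted cells by -0.49 on the log2 scale, and that in 4N cells by -0.48. An antisense transcript, D630008O14Rik, overlaps *Bcl2*. The library kit keeps strand, and whether the counting used it was not stated.

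The effectors *Bax* (chr7:45461697-45466898, minus strand) and *Bak1* (chr17:27019810-27029009, minus strand) were lower with CYC065 in each pair of libraries. *Bax* had 931, 941 and 899 counts in vehicle unsorted and 463, 476 and 489 in CYC065 unsorted cells. It had 707, 746 and 705 against 509, 541 and 482 in 2N cells, and 820, 795 and 762 against 533, 526 and 567 in 4N cells. The log2 fold change was -0.83 (interval -0.92 to -0.74), -0.46 (-0.56 to -0.37) and -0.68 (-0.77 to -0.58) in unsorted, 2N and 4N cells. Exons of *Bax* overlap Gm45808 on the same strand, with which its reads could be shared.

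*Bak1* had the second-highest level of the 9 in 5 libraries when counted per kilobase. Its columns held 2906, 2901 and 2884 counts in vehicle unsorted and 1538, 1575 and 1568 in CYC065 unsorted cells. In 2N cells they held 2386, 2333 and 2321 against 1808, 1773 and 1838, and in 4N cells 2546, 2636 and 2580 against 2325, 2318 and 2407. The log2 fold change was -0.77 (interval -0.82 to -0.71) in unsorted cells and smaller in the sorted fractions, at -0.35 in 2N and -0.27 in 4N cells. The 2N and 4N responses each differed from the unsorted response, by 0.42 and 0.50. *Bak1* overlaps *Ggnbp1* on the opposite strand.

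*Bcl2l11* (chr2:128126038-128162547, plus strand) encodes BIM, an activator BH3-only protein that binds each of the prosurvival members. BIM is known to be regulated in part through its transcription, and its protein was not measured here. Its columns held 294, 298 and 288 counts in vehicle unsorted and 1026, 1009 and 953 in CYC065 unsorted cells. In 2N cells they held 334, 361 and 369 against 957, 942 and 959, and in 4N cells 301, 273 and 300 against 917, 947 and 878. The lowest CYC065 column, 878, lay far above the highest vehicle column, 369.

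In CPM, *Bcl2l11* rose from 15.1 to 55.9 in unsorted, from 18.4 to 50.5 in 2N and from 14.4 to 41.3 in 4N cells. The log2 fold change was 1.89 (SE 0.04, adjusted P = 2.42e-22), 1.46 (SE 0.04, adjusted P = 3.09e-20) and 1.52 (SE 0.04, adjusted P = 3.63e-20) in edgeR's test. *Bcl2l11* was the only one of the 9 called in all 3 comparisons, and 8.06% of all genes tested were called higher in all 3. In unsorted cells 4.88% of genes had a greater log2 fold change, in 2N cells 10.9% and in 4N cells 9.21%. Its range over the 6 libraries exceeded that of 90.9% of well-counted genes. Per kilobase of exon, it held rank 9, 8 and 8 of the 9 in the vehicle unsorted, 2N and 4N libraries, and rank 5, 6 and 6 in the corresponding CYC065 libraries.

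The 250 bases before the annotated start of *Bcl2l11* are shown because FOXO factors are known activators of this gene and it had the greatest range of the 9 members. The sequence is from RefSeq for GRCm38.p6, at chr2:128125788-128126037, plus strand. Capitals mark the FOXO core (TGTTTAC, here on the opposite strand) and the GC boxes (GGGCGG).
Bcl2l11 promoter: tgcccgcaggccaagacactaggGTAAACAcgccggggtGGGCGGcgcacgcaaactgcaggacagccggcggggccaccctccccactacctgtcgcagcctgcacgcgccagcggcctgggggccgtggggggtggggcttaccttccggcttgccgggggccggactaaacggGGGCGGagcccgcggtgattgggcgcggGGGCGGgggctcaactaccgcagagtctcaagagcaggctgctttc

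With both strands searched in the 250 bases before each start, TGTTTAC occurred in 3.17% of 32851 promoters. Among the 9 members it occurred once, in *Bcl2l11*. GGGCGG occurred in 32.7% of promoters and in 7 of the 9 members, with 7 matches in *Bcl2*, 5 in *Bbc3* and 3 in *Bcl2l11*. CACGTG, the E-box of MYC-type factors, occurred in *Bax* and in 6.02% of promoters, and TTTCGCGC, an E2F site, in none of the 9 and in 0.256% of promoters. CCAAT occurred in *Bcl2l11* and in 33.8% of promoters. The letters were matched without regard to binding, and no factor was measured.

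*Bbc3* (chr7:16308393-16318205, plus strand) encodes PUMA, a BH3-only protein best known as a p53 target that binds all prosurvival members. It had few counts. Its columns held 96, 100 and 107 counts in vehicle unsorted and 117, 105 and 122 in CYC065 unsorted cells. In 2N cells they held 32, 50 and 41 against 125, 131 and 131, and in 4N cells 40, 45 and 45 against 104, 110 and 118. The sorted vehicle libraries stood apart from the other 4, which had at least 96 counts in each column.

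In CPM, *Bbc3* was at 5.19 and 6.44 in unsorted, 2.13 and 6.84 in 2N, and 2.14 and 5.00 in 4N cells, vehicle first. Its log2 fold change with CYC065 was 1.68 (SE 0.13, adjusted P = 9.57e-12) in 2N and 1.22 (SE 0.13, adjusted P = 5.36e-09) in 4N cells, and 0.31 (interval 0.08 to 0.54) in unsorted cells. In 4N cells the interval, 0.93 to 1.53, reached below 1. The responses in 2N and unsorted cells differed by 1.37 (interval 1.04 to 1.71), a difference called among the 8.98% of genes called there. That of 4N and unsorted cells differed by 0.91 (interval 0.58 to 1.25).

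The sorted and unsorted libraries were also compared within each treatment. *Bbc3* was 2.44-fold lower in vehicle 2N and 2.42-fold lower in vehicle 4N than in vehicle unsorted cells, where 11.1% and 12.8% of all genes were called in either direction. With CYC065, 2N and unsorted cells had a log2 difference of 0.09 that did not pass (adjusted P = 0.507), while 4N cells were lower than unsorted cells, with -0.36 (interval -0.59 to -0.14). Among the regulators of BH3-only genes listed below, 2 of 8 were higher and 4 lower in vehicle 2N than in vehicle unsorted cells, and among 8 p53 targets 4 were higher and 3 lower. Of all genes, 67.2% passed in that comparison in either direction. The genes named next are ones with negative differences. *Trib3*, a pseudokinase induced by ER and nutrient stress, had log2 differences of -2.23 (2N) and -2.35 (4N) from unsorted cells under vehicle. *Sesn2*, a stress-induced inhibitor of mTORC1, had -1.89 and -2.0, and *Ddit3*, the gene of CHOP, had -0.28 and -0.90. The part of sorting, handling or culture conditions in these values was not tested.

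*Pmaip1* (chr18:66458533-66465565, plus strand), the gene of NOXA, which binds MCL1 with preference, had 0 counts in all 18 columns. A count of 0 in a library allows a level of up to 0.0452 to 0.0562 CPM, taking 3 counts as the limit. Its response could not be tested.

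*Bid* (chr6:120891930-120916853, minus strand) links death receptors to mitochondria once caspase-8 has cut its protein, and *Bad* (chr19:6941861-6951899, plus strand) couples survival kinases to BCL-xL. Both are known to be controlled largely after translation. *Bid* columns held between 198 and 352 counts, and its log2 fold change was -0.25 in unsorted cells (interval -0.40 to -0.10), -0.04 in 2N (interval -0.18 to 0.10) and -0.11 in 4N cells (interval -0.24 to 0.01), of which the first passed. *Bad* columns held between 254 and 343 counts, and its log2 fold changes of -0.05, 0.11 and 0.03 did not pass in any of the 3 pairs. The interval of the greatest of these, in 2N cells, ran from -0.02 to 0.25. *Bid* overlaps *Bcl2l13* and *Bad* overlaps *Gpr137*, each on the opposite strand.

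**Figure D2:**
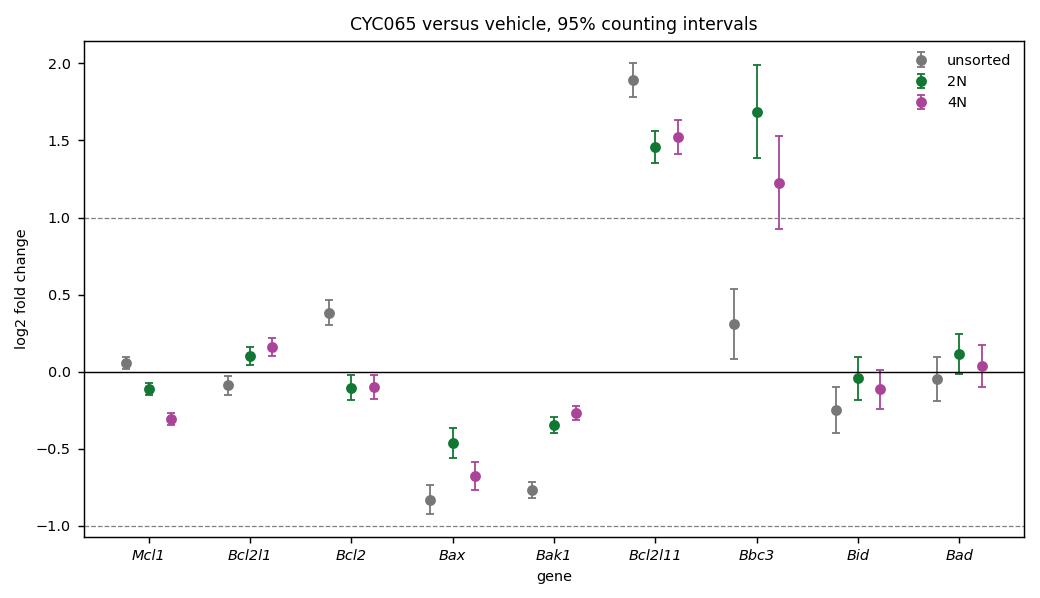
Log2 fold change of CYC065 versus vehicle for the 9 tested members in unsorted, 2N and 4N cells. Points are edgeR estimates, whiskers 95% counting intervals, and dashed lines the threshold of 1 in each direction. *Bcl2l11* lies beyond 1 in all 3 comparisons and *Bbc3* in 2N and 4N cells, while *Bax* and *Bak1* lie below 0 in all 3.

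The order of abundance among the 9 members differed between libraries. Per kilobase of exon, *Mcl1* stood highest in 5 libraries, at 47.2 to 61.9 CPM per kilobase, and *Bak1* stood first in vehicle unsorted cells, at 61.9 against 57.7 for *Mcl1*. *Bax* and *Bcl2l1* held rank 3 or 4, from 15.4 to 30.1 CPM per kilobase. *Bbc3* was the ninth in 5 libraries, at 1.00 to 3.22 CPM per kilobase, and the eighth in vehicle unsorted cells, at 2.45.

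Summed by role, the BH3-only transcripts made up 7.80% of the family's CPM per kilobase in vehicle unsorted and 12.5% in CYC065 unsorted cells. They made up 7.92% and 12.8% in 2N, and 7.54% and 11.8% in 4N cells. The effectors moved the other way, from 49.8% to 34.8%, from 43.3% to 36.2% and from 45.7% to 40.6%. The prosurvival share was 42.4% with vehicle and 52.7% with CYC065 in unsorted cells, 48.8% and 50.9% in 2N, and 46.7% and 47.6% in 4N cells. The summed prosurvival level itself was 78.4 with vehicle and 81.0 CPM per kilobase with CYC065 in unsorted cells. It was 83.8 and 80.1 in 2N, and 79.6 and 70.1 in 4N cells, so that it was lower with CYC065 in both sorted fractions. Each share is a description of 1 library.

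Ratios of binding partners within a library do not depend on scaling between libraries. *Bcl2l11* had 7.65 counts per 100 *Mcl1* counts in vehicle unsorted cells (interval 7.14 to 8.20), 8.69 in vehicle 2N and 7.21 in vehicle 4N cells. With CYC065 it had 27.3 (interval 26.2 to 28.4), 25.8 and 25.6. The 3 CYC065 libraries lay close together and well above the 3 vehicle libraries. *Bax* had 120 counts per 100 *Bcl2* counts in vehicle unsorted and 51.7 in CYC065 unsorted cells, 79.8 and 62.2 in 2N, and 90.5 and 60.7 in 4N cells.

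*Bbc3* had 6.91 counts per 100 *Bcl2l1* counts in vehicle unsorted and 9.11 in CYC065 unsorted cells, 2.77 and 8.27 in 2N, and 2.83 and 5.91 in 4N cells. *Bad*, in contrast, had between 16.6 and 20.6 counts per 100 *Bcl2l1* counts in the 6 libraries, lowest in CYC065 4N cells.

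**Figure D3:**
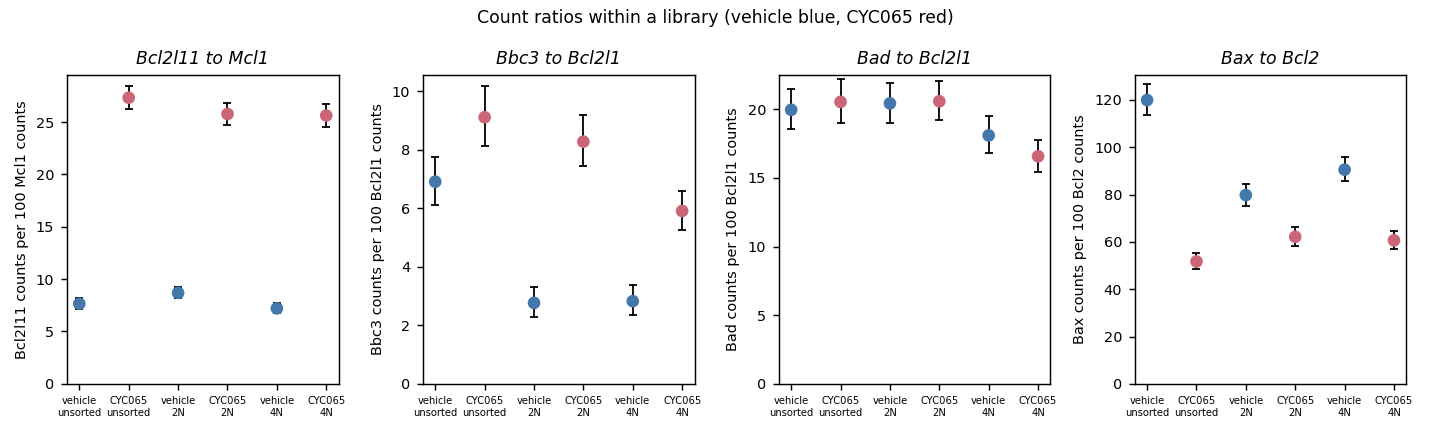
Counts of a death-promoting member per 100 counts of a prosurvival partner in each of the 6 libraries, with 95% exact counting intervals. The *Bcl2l11* to *Mcl1* ratio is 25.6 to 27.3 in the CYC065 libraries and 7.21 to 8.69 in the vehicle libraries, while the *Bad* to *Bcl2l1* ratio stays between 16.6 and 20.6.

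The study asked how polyploid cells that outlive CDK2 inhibition differ from diploid ones, and the 4N and 2N libraries were compared for this family. No member was called with CYC065, where 3.31% of all genes were called, nor with vehicle, where 2.8% were. At any size with CYC065, 1 member was higher and 6 were lower in 4N cells in edgeR's test, against 44.2% of all genes passing. *Bak1* was higher, with a log2 difference of 0.15. *Bbc3* had -0.45 (interval -0.67 to -0.23), *Bcl2l11* -0.29 (interval -0.37 to -0.21), *Mcl1* -0.28 (interval -0.32 to -0.24), *Bad* -0.28, *Bax* -0.14 and *Bcl2* -0.11. *Bcl2l1* (0.04) and *Bid* (0.11) did not pass.

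With vehicle, 2 members were higher in 4N cells (*Bid*, 0.18, and *Bak1*, 0.07) and 4 were lower, against 39.8% of all genes passing. The lower ones were *Bcl2l11* (-0.35, interval -0.48 to -0.22), *Bad* (-0.20), *Bcl2* (-0.11) and *Mcl1* (-0.08). *Bcl2l11* thus had a lower level in 4N than in 2N cells under both treatments. *Bbc3* had a log2 difference of 0.01 whose interval, -0.36 to 0.38, was wide at 123 and 130 counts.

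Whether CYC065 acted differently in 4N and 2N cells was tested as the difference of the log2 fold changes. No member was called, where 3.79% of all genes were, and 2 of the 9 passed at any size, where 38.6% of all genes did. *Mcl1* differed by -0.20 (interval -0.25 to -0.15), since CYC065 went with a greater decrease in 4N than in 2N cells, and *Bax* by -0.21 (interval -0.33 to -0.09). *Bbc3* differed by -0.46 (interval -0.83 to -0.09), which did not pass (adjusted P = 0.0706). *Bcl2l11* differed by 0.06 (interval -0.06 to 0.19).

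**Figure D4:**
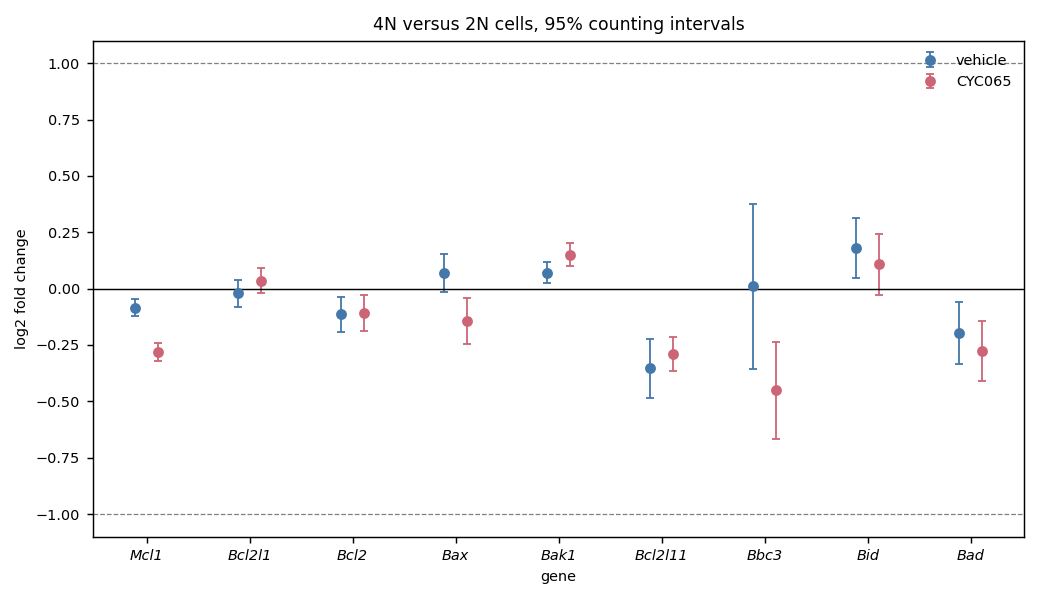
Log2 fold change of 4N versus 2N cells for the 9 tested members with vehicle and with CYC065. Points are edgeR estimates, whiskers 95% counting intervals, and dashed lines the threshold of 1 in each direction, which no member reaches. *Bcl2l11* lies below 0 under both treatments, and *Mcl1* lies lower with CYC065 (-0.28) than with vehicle (-0.08).

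The edgeR test takes its spread from parts of 1 library. If cultures are taken to vary with a coefficient of 0.2, *Bcl2l11* passed in all 3 CYC065 comparisons (adjusted P = 0.000178, 0.00453 and 0.00364) and *Bbc3* in 2N and 4N cells (adjusted P = 0.0016 and 0.0323). No other member did in any comparison, *Bax* and *Bak1* in unsorted cells included (adjusted P = 0.142 and 0.18).

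Other genes of the mitochondrial pathway were taken from lists. For each list, the background with CYC065 was 78.3%, 80.4% and 80.5% of all genes passing in either direction in unsorted, 2N and 4N cells. Of 17 further BCL2 family genes, 10 were tested. With CYC065, 4 were higher and 4 lower in unsorted, 3 and 5 in 2N, and 2 and 5 in 4N cells. *Bmf*, a BH3-only gene tied to the cytoskeleton and anoikis, had the greatest change, with 57 counts in vehicle unsorted and 1538 in CYC065 unsorted cells, 18 and 702 in 2N, and 16 and 568 in 4N cells. These counts gave log2 fold changes of 4.87, 5.29 and 4.99. Among the BH3-only genes tested, *Bmf* and *Bcl2l11* were called higher in all 3 pairs, and no other was. *Bnip3l*, a mitophagy receptor, had 0.68, 1.20 and 0.86. *Bok*, an effector-like member, was lower, with -1.30, -0.81 and -0.41. *Bcl2l15* had -1.70 in 4N cells, and its -0.52 and -0.31 in unsorted and 2N cells did not pass.

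Downstream of the pores, 8 of the 9 genes of mitochondrial release and the apoptosome were lower and 1 was higher in each of the 3 CYC065 comparisons, where 78.3%, 80.4% and 80.5% of all genes passed in either direction. Cytochrome c, encoded by *Cycs*, went from 76.5 to 18.3 CPM in unsorted, 95.5 to 29.7 in 2N and 113 to 30.1 CPM in 4N cells. These are log2 fold changes of -2.06, -1.68 and -1.91. *Htra2*, a protease released with it, had -1.24, -1.49 and -1.47, and *Endog*, a mitochondrial nuclease, -1.21, -0.72 and -1.19. The gene that was higher was *Apaf1*, the scaffold of the apoptosome, with 0.33, 0.42 and 0.47. It was singled out here after its values were seen. The median of the 9 was -0.44, -0.48 and -0.39, where that of all genes was 0.00, 0.03 and 0.07.

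Among 11 genes of caspases and of the DNA fragmentation factor they activate, 4 were higher and 3 lower in unsorted cells, and 8 and 3 in each sorted fraction. Of all genes, 78.3%, 80.4% and 80.5% passed in either direction in unsorted, 2N and 4N cells. *Casp4*, an inflammatory caspase, had log2 fold changes of 2.54, 2.54 and 2.62. *Casp12*, a caspase of the ER, had 0.28, 1.52 and 1.42, and *Casp1*, the interleukin-1 converting enzyme, -1.04, 2.08 and 1.84. *Casp12* and *Casp1* were, as *Bbc3* was, at a lower level in vehicle 2N than in vehicle unsorted cells, with log2 differences of -1.14 and -1.98.

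Of 7 inhibitor of apoptosis genes, 3 were higher and 3 lower in each pair. *Birc5*, the gene of survivin, which is expressed in mitosis, had -1.88, -1.68 and -1.10. *Birc2* had 0.74, 0.87 and 1.12, and *Naip2* 1.38, 3.05 and 1.83. Of 7 death receptor genes, 4 were higher in each pair, and 3, 2 and 3 were lower in unsorted, 2N and 4N cells. *Fas* had 1.57, 0.96 and 0.88, and its adaptor *Fadd* was lower, with -1.54, -1.64 and -2.07.

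MCL1 protein is known to be set by its degradation, which mRNA does not show. Of 7 tested genes of its turnover, 3 were higher and 3 lower in unsorted, 2 and 4 in 2N, and 3 and 4 in 4N cells. *Cdc20*, an activator of the anaphase-promoting complex that marks MCL1 for degradation in mitosis, had -1.84, -1.09 and -0.82 with CYC065. It was higher in 4N than in 2N cells, by 1.13 with CYC065 and 0.87 with vehicle.

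Of 8 tested transcription regulators of BH3-only genes, 4 were higher and 4 lower in unsorted cells, and 5 and 3 in each sorted fraction. *Foxo1*, a known activator of *Bcl2l11*, had 1.19, 1.44 and 1.29. *Ddit3*, which activates *Bcl2l11* and *Bbc3* under ER stress, had 0.36, 1.19 and 1.67. *Trib3* had -1.11, 1.94 and 2.03, and *E2f1* was lower, with -1.37, -1.33 and -1.19. The levels of these regulators and of the BH3-only genes were measured in the same 6 libraries, and a link between them was not tested.

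Of 8 p53 targets, 5 were higher and 3 lower in unsorted and 2N cells, and 4 and 3 in 4N cells. *Cdkn1a*, the gene of p21, was lower, with -1.16, -0.27 and -0.56, as was *Aen*, with -1.46, -1.80 and -1.52. *Eda2r* had 1.36, 1.74 and 0.86. *Sesn2* had 0.35, 2.69 and 2.57. The list as a whole had medians of 0.24, 0.15 and 0.04.

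Immediate early genes, which respond to handling within minutes, were also higher with CYC065, 9 of 10 in unsorted cells and 10 of 10 in each sorted fraction, where 78.3%, 80.4% and 80.5% of all genes passed in either direction. *Fos* had 3.93, 2.58 and 2.50, *Fosb* 2.09, 2.11 and 1.57, *Dusp1* 2.24, 1.86 and 1.43, and *Atf3* 0.71, 2.31 and 2.16. With CYC065, 9 of the 10 were lower in 4N than in 2N cells, a comparison in which 44.2% of all genes passed and *Bcl2l11* and *Bbc3* were also lower. With vehicle, 8 of the 10 were lower in 4N than in 2N cells, where 39.8% of all genes passed. There *Bcl2l11* was also lower (-0.35), and *Bbc3* (0.01) did not pass. The part of the immediate early genes in the BH3-only changes was not tested.

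**Figure D5:**
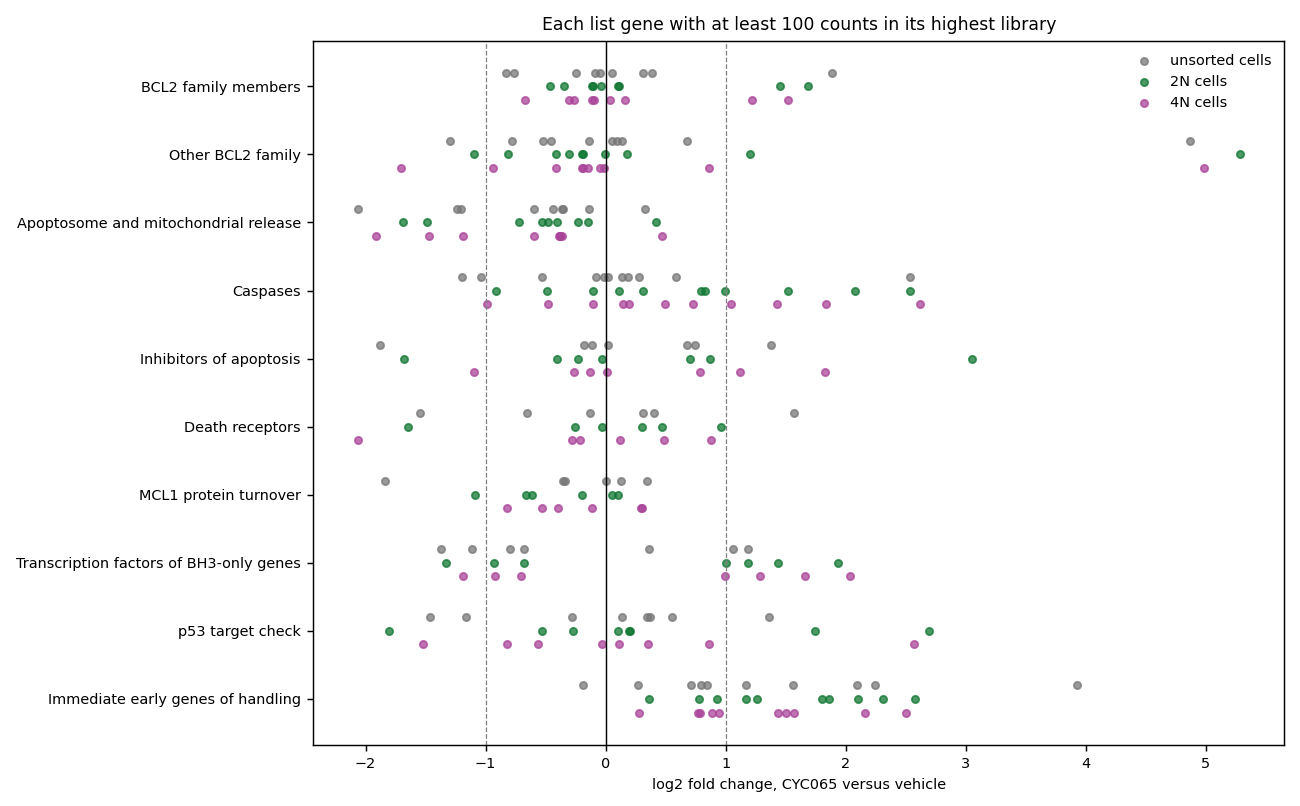
Log2 fold change of CYC065 versus vehicle for each list gene with at least 100 counts in its highest library, in unsorted, 2N and 4N cells. Each dot is 1 gene and dashed lines mark 1 in each direction. The dots near 5 are *Bmf*, and the leftmost dot of the mitochondrial release list is *Cycs*, at -2.06 in unsorted cells.

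The genes whose pattern over the 6 libraries was most like that of *Mcl1* were *Rtl8b*, *Rpl13a* and *Rc3h1*, among 10815 genes. Their root mean square distance from *Mcl1*, in log2 CPM centred on each gene's mean, was 0.029, 0.048 and 0.053. *Rpl13a* went from 329 CPM in vehicle unsorted to 255 in CYC065 4N cells and *Rtl8b* from 13.9 to 11.5.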

How the data were processed

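The deposited table holds RSEM expected counts per gene. The authors removed rRNA, made stranded total RNA libraries, sequenced them in pairs, aligned the reads to mm10 with STAR 2.7.0f and counted GENCODE M21 genes with RSEM 1.3.1 (versions from the submitters' processing notes). These deposited expected counts were not normalized or filtered, and 9.66% of genes held a fraction in some column. They were rounded to whole numbers. The 18 columns were fitted together with edgeR 4.0.16 in R 4.3.3 (TMM, quasi-likelihood test, prior count 0.125, 1 mean per condition, Benjamini-Hochberg adjustment) over genes with at least 30 summed counts in at least 1 condition. Column totals ran from 18246493 to 20933929. The common biological coefficient of variation among columns was 0.0288. On simulated data for CYC065 versus vehicle in 2N cells, 200 of 200 changed genes among 13781 were recovered with 0 false calls. The simulation drew counting noise only, with all other genes equal and the changes balanced in direction. It checks that the fit runs and does not measure false calls in these data. Counting intervals are exact binomial intervals on summed columns. Intervals for differences of responses are normal intervals from the standard error of edgeR's test. The members and lists were chosen with earlier results of these data known. Named list genes were up to 4 per list with the greatest change among those called with at least 100 counts. One gene that this rule names is not reported here. DESeq2 1.42.0 was an alternative. Python 3.11.15 with SciPy 1.17.1 and Matplotlib 3.10.9 was used for intervals and plots.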

Additional observations from a re-analysis of the deposited data

Results flagged for a closer look

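The response of *Bbc3* to CYC065 differed between 2N and unsorted cells by 1.37 on the log2 scale (adjusted P = 2.41e-07 in edgeR's test of the difference). Its log2 fold change was 1.68 in 2N and 0.31 in unsorted cells. The response was flagged because the test of the difference itself passed with a size beyond 1. Both vehicle libraries and both CYC065 libraries enter this value, and each is 1 library. If cultures are taken to vary with a coefficient of 0.2, the difference did not pass (adjusted P = 0.56).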

How the results depend on the processing

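The counts of called members kept their values under all alternatives in the 6 planned comparisons, except that 1 member rather than 2 was called for CYC065 in 4N cells when columns were summed and the counting interval had to lie beyond 1 (*Bbc3*, 1.23). Of the other values, 30 changed sign. Scaling by library totals shifted the median of all genes to -0.11 (CYC065 in unsorted cells), 0.13 (CYC065 in 4N), 0.20 (2N versus unsorted with CYC065) and 0.23 (4N versus unsorted with CYC065). It turned *Mcl1* to -0.062 and *Bid* to 0.0072 (CYC065 in unsorted and 2N cells), *Bcl2l11* to 0.031 and *Mcl1* to 0.12 (2N versus unsorted, CYC065), *Bax* to 0.084 and *Bad* to 0.16 (4N versus unsorted, CYC065) and the *Mcl1* difference of 2N and unsorted responses to 3.07e-05. With that scaling the *Bbc3* difference of 4N and unsorted responses was called, at 1.09.

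*Bad* with CYC065 in 4N cells was -0.0010 with sorted libraries fitted alone and -0.0058 with no filter. *Bcl2l1* in 4N versus 2N vehicle cells was 0.0034 with DESeq2 and with its size factors. The *Bcl2* difference of 4N and 2N responses was -0.034 with either and -0.012 at 100 counts. Leaving out each replicate number in turn gave values on both sides of 0 for *Bid* with CYC065 in 2N cells (-0.13 to 0.023) and in 2N versus unsorted vehicle (-0.10 to 0.023), *Bad* with CYC065 in 4N cells (-0.055 to 0.15) and in 4N versus unsorted CYC065 cells (-0.13 to 0.049), *Bcl2l1* in 4N versus 2N CYC065 cells (-0.017 to 0.056) and in 4N versus unsorted vehicle (-0.0043 to 0.015), *Bbc3* in 4N versus 2N vehicle (-0.087 to 0.15) and *Bax* in 2N versus unsorted CYC065 cells (-0.026 to 0.080). So it did for the difference of 4N and 2N responses of *Bcl2l1* (-0.012 to 0.10), *Bad* (-0.15 to 0.012), *Bcl2l11* (-0.034 to 0.13) and *Bcl2* (-0.085 to 0.052), and of 4N and unsorted responses of *Bad* (-0.0020 to 0.20). *Bbc3* with CYC065 in unsorted cells did not pass without replicate 1 or 3 (0.27 and 0.30). The cause was not tested.

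If cultures are taken to vary with a coefficient of 0.2, the calls of *Bbc3* in vehicle 2N and 4N versus unsorted cells (-1.28 and -1.27) did not pass (adjusted P = 0.0626 and 0.0562), nor with summed columns. Genes called over the whole table in 4N versus 2N cells numbered 489 with CYC065 (203 higher), 43 with that spread and 225 (117 higher) at 100 counts. With vehicle they numbered 413 (150 higher), 28 (17 higher) and 170. For the difference they numbered 559 (302 higher), 15, 278 (118 higher), 349 with DESeq2, and 366 and 370 without replicate 1 or 2. A replicate block changed no count of called members, which stayed at 1, 2 and 2 for CYC065 in unsorted, 2N and 4N cells. Same-numbered columns correlated between -0.56 and 0.40 over 45 pairs. These values had both signs and do not tell whether the numbers pair the samples. The interval on summed columns was not run for differences of responses. Depth limited *Bbc3*, *Bid* and *Bad*, and the single library per condition limited all values.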
